A study of Mus musculus with 12 samples.

Results

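The Reg genes encode small secreted C-type lectin-like proteins. The 6 Reg genes described here are Reg1, Reg2, Reg3a, Reg3b, Reg3d and Reg3g, which were chosen by symbol and, as a group, from measured values: their high counts in challenged wild-type libraries of this same study. All 6 were found among the 50643 genes of the deposited count table, and all 6 passed the filter on low counts that 16694 genes passed. The 4 Reg3 genes passed through challenged libraries only, where they are high, so levels and fold changes of the members are given as a description. Calls of the members in the fit over all genes are listed once, beside the share of all genes called, and support nothing. Reg4, another mouse gene of the family, was not a member and had 0 counts in all 12 libraries, which allows up to 0.0442 to 0.0521 CPM in a group at 3 counts.

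The libraries came from natural killer (NK) cells, isolated from C57BL/6 mouse spleen by negative selection, a method that removes other cells and leaves NK cells untouched. The 4 groups of 3 libraries each were Mirc11-/- mice challenged with Listeria, Mirc11-/- mice left unchallenged, wild-type mice challenged with Listeria and wild-type mice left unchallenged. Mirc11 is a cluster of microRNA genes, and Listeria is a Gram-positive intracellular bacterium. The sources used here do not give the dose, route or time of the challenge, the sex or age of the mice, or the cells that carry the deletion. The labels call the 3 samples of each group biological replicates without naming separate animals, so errors measure the spread between these samples.

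Reg proteins were first studied in pancreas and gut. Acinar cells of the pancreas, which secrete digestive enzymes, and epithelial cells of the intestine make them at high levels during inflammation. Reg3g kills Gram-positive bacteria by binding their peptidoglycan, and Reg3b also acts on Gram-negative bacteria. In epithelium, interleukin 22 and interleukin 6 induce Reg3 genes through the transcription factor STAT3.

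All 6 genes lie side by side on mouse chromosome 6. In the GENCODE vM21 annotation of GRCm38 they span 98.2 kb, from 78370657 to 78468872, and no other annotated gene lies in that span. In the order along the chromosome they are Reg3b, Reg3d, Reg3a, Reg2, Reg1 and Reg3g, with Reg3d and Reg3g on the minus strand and the others on the plus strand. Reg1 and Reg2 share 78.8% of their coding bases, Reg3a, Reg3b and Reg3g share 73.2% to 76% pairwise, and Reg3d shares 66.0% to 68.0% with those 3. Between the pair Reg1 and Reg2 and the Reg3 genes identity was 54.96% to 59.9%. No 50-base stretch was shared between the transcripts of different members.

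Promoters of 4 members follow because these genes span the range of unchallenged levels, with Reg1 the highest and Reg3a and Reg3b at or near 0. Sequences are from RefSeq on GRCm38.p6, 250 bases before to 50 after the start of each gene, all on the plus strand, and all 6 members matched a RefSeq entry. Capitals mark matches to motifs searched on both strands. They lie at chr6:78370635-78370934 for Reg3b, chr6:78380459-78380758 for Reg3a, chr6:78404905-78405204 for Reg2 and chr6:78425733-78426032 for Reg1.
Reg3b: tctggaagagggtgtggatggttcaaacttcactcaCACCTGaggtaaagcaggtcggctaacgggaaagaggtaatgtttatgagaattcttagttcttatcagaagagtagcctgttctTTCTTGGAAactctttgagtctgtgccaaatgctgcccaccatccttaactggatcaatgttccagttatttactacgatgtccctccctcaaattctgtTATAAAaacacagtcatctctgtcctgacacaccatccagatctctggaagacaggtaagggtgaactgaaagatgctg
Reg3a: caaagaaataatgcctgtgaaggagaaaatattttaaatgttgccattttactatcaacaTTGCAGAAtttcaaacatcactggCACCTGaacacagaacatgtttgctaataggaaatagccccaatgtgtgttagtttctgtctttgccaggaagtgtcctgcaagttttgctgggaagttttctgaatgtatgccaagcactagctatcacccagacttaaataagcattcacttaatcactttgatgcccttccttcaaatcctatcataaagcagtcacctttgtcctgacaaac
Reg2: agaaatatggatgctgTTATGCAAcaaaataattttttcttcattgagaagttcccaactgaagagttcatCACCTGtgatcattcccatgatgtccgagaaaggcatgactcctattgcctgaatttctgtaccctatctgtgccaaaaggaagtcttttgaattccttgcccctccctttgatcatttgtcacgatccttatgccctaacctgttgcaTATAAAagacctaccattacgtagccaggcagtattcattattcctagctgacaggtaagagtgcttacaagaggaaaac
Reg1: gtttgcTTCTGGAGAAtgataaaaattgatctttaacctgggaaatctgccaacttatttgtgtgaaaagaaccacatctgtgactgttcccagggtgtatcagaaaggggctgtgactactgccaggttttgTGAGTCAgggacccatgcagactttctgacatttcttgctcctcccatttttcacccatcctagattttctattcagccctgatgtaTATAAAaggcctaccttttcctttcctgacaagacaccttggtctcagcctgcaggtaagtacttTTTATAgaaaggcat

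The TATA box letters TATAAA ended 25 or 24 bases before the start in Reg1, Reg2 and Reg3b, and 22 bases before it in Reg3g. TATAAA was present in 13.6% of 32544 promoters of this length. The STAT motif TTCNNNGAA was present in Reg3b, starting at -129, and in Reg3d, starting at -238, and in 8.33% of all promoters. A STAT motif with a longer spacer was present in Reg1 alone among the 6 and in 6.98% of all promoters. The C/EBP motif TTGCNNAA was present in Reg2 and Reg3a and in 10.8% of all promoters, and the AP-1 motif TGANTCA in Reg1 and in 7.79%. The E-box CACCTG, the letters bound by the acinar factor PTF1 among others, was present in Reg2, Reg3a, Reg3b and Reg3d and in 20.3% of all promoters. These are matches of letters, and none of the motifs overlapped another in the 6 promoters.

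Library totals ran from 17624530 to 23665679 counts, so that 1 count was worth 0.0423 to 0.0567 CPM, the count scaled to a common library total. All 12 NK cell marker genes were detected in every group, with a summed level of 6944 to 10057 CPM over the 12 libraries. The microRNA genes of the deleted cluster had 0 counts in every library and check nothing about genotype. The long noncoding RNA Gm26532 starts at the end of that cluster. Challenged Mirc11-/- replicate 3 held it at 2.70 CPM, against 2.34 to 4.27 CPM in challenged wild-type libraries. Gm37352, an unclassified transcript upstream of the cluster, held 29.7 to 47.2 CPM in challenged Mirc11-/- libraries, replicate 3 being the lowest, against 3.33 to 6.75 CPM in challenged wild-type libraries. Xist, the RNA of the inactive X chromosome, and the Y-linked Ddx3y were both present in all 3 challenged Mirc11-/- libraries and in unchallenged wild-type replicate 4. Unchallenged Mirc11-/- libraries held at most 1.08 CPM of Xist, against 1198 CPM or more in unchallenged wild-type libraries. Ddx3y held 44.1 to 80.5 CPM in challenged Mirc11-/- libraries, against at most 0.133 CPM in challenged wild-type ones. That difference remains when challenged Mirc11-/- replicate 3 is left out. The part of sex-linked differences in the results was not tested, and values without challenged Mirc11-/- replicate 3 and unchallenged wild-type replicate 4 are given beside the results they touch.

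Reg3b, whose protein is a bactericidal lectin, had the highest level of the 6 after challenge. It had 6.63, 8.99 and 6.04 CPM in challenged Mirc11-/- libraries and 0 counts in all 3 unchallenged Mirc11-/- libraries. It had 105, 131 and 110 CPM in challenged wild-type libraries, against 0.218, 0.358 and 0.102 CPM in unchallenged ones. No library of any group overlapped a library of another group. The difference of challenged minus unchallenged wild-type was 9.06 ± 0.23 (log2 fold change with its approximate standard error, from edgeR's fit over all 12 libraries). The unchallenged group held 13 counts in all. In Mirc11-/- the challenged level was at least 144-fold higher than the floor of 3 counts over the unchallenged group. In bulk RNA, fewer cells of a type and less RNA per cell cannot be told apart.

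Reg3a, a close relative of Reg3b by sequence, had 3.00, 2.86 and 1.95 CPM in challenged Mirc11-/- libraries and 0 counts in unchallenged ones. In wild-type it had 33.3, 35.5 and 32.3 CPM with challenge, against 2, 1 and 0 counts without it. The challenged libraries of both genotypes lay above every unchallenged library, and the wild-type ones were the higher. The ratio of summed CPM in wild-type was 647, with an exact 95% interval of 221 to 3138 that covers counting error only, because the unchallenged group held 3 counts. In Mirc11-/- the challenged level was at least 52.0-fold higher than the floor.

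Reg3g, the peptidoglycan-binding lectin, had 1.52, 1.499 and 0.511 CPM in challenged Mirc11-/- libraries and 0 counts in unchallenged ones. In wild-type it had 17.4, 19.7 and 16.3 CPM with challenge, against 0.218, 0.0512 and 0.102 CPM without it. Challenged Mirc11-/- replicate 3 was the lowest challenged library, and it still lay above all unchallenged ones. The wild-type difference was 7.23 ± 0.38 on the log2 scale, and the Mirc11-/- level was at least 23.5-fold higher than the floor.

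Reg3d was the lowest member after challenge and the most distant Reg3 gene by sequence. It had 0.465, 0.515 and 0.139 CPM in challenged Mirc11-/- libraries, from 11, 11 and 3 counts, and 0.113, 0.136 and 0.149 CPM in unchallenged ones. These groups overlapped, because challenged replicate 3 fell among the unchallenged libraries. In wild-type it had 9.31, 9.997 and 7.11 CPM with challenge, against 0.109, 0.153 and 0.102 CPM without it. The log2 difference with challenge was 1.44 ± 0.50 in Mirc11-/- and 6.21 ± 0.34 in wild-type. Without challenged Mirc11-/- replicate 3 the first of these was 1.81 ± 0.41. The Mirc11-/- groups held 25 counts with challenge and 8 without it.

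Reg1, known in pancreas as lithostathine, was the member with the highest level before challenge. It had 4.73, 5.76 and 3.44 CPM in challenged Mirc11-/- libraries and 3.52, 3.30 and 3.47 CPM in unchallenged ones, and these groups overlapped. In wild-type it had 69.7, 76.9 and 60.2 CPM with challenge, against 5.78, 6.09 and 5.54 CPM without it, with no overlap. The log2 difference with challenge was 0.43 ± 0.16 in Mirc11-/- and 3.67 ± 0.14 in wild-type. Leaving out challenged Mirc11-/- replicate 3 made the Mirc11-/- difference 0.60 ± 0.14. Every challenged Mirc11-/- library lay within or below the unchallenged wild-type range of 5.54 to 6.09 CPM.

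Reg2, the nearest relative of Reg1, was low before challenge and second to Reg3b after it. It had 7.18, 4.73 and 4.42 CPM in challenged Mirc11-/- libraries and 0.851, 0.588 and 0.693 CPM in unchallenged ones. In wild-type it had 78.1, 86.2 and 71.9 CPM with challenge, against 1.64, 0.665 and 1.07 CPM without it. Challenged and unchallenged libraries did not overlap in either genotype. The log2 difference with challenge was 2.94 ± 0.28 in Mirc11-/- and 6.24 ± 0.22 in wild-type.

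**Figure D1:**
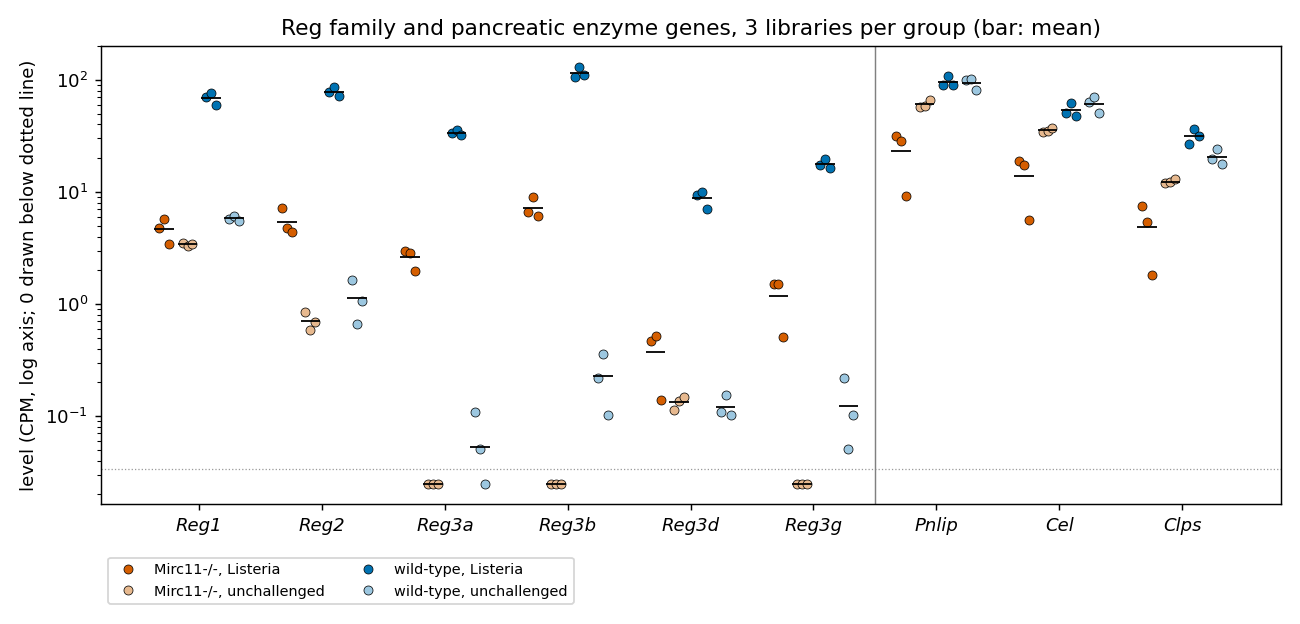
Level of each Reg gene and of the pancreatic enzyme genes Pnlip, Cel and Clps in CPM on a log axis, with 1 point per library, a bar for the mean of 3 libraries, and values of 0 drawn below the dotted line. Every Reg gene is highest in challenged wild-type libraries, from 7.11 CPM for the lowest Reg3d library to 131 CPM for the highest Reg3b library. Pnlip and Cel overlap between challenged and unchallenged wild-type libraries, while Clps is 1.53-fold higher with challenge there, without overlap.

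Adjusted for transcript length, the 6 genes kept the same order in both challenged groups. As CPM per kb of the longest coding transcript, Reg3b averaged 9.23 ± 1.99 in challenged Mirc11-/- and 147 ± 17.6 in challenged wild-type libraries (SD, n = 3 each). Reg2 followed at 7.80 ± 2.17 and 113 ± 10.3, then Reg1 at 5.14 ± 1.29 and 76.2 ± 9.24, in the same groups and unit. Reg3a was at 3.16 ± 0.689 and 40.9 ± 1.98, Reg3g at 1.53 ± 0.748 and 23.1 ± 2.25, and Reg3d at 0.477 ± 0.261 and 11.3 ± 1.93. In challenged wild-type libraries each neighbour in this order differed by more than the sum of the SDs. In challenged Mirc11-/- libraries Reg3b and Reg2, and Reg2 and Reg1, did not differ beyond their spread on that measure.

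Challenged libraries of both genotypes held a similar mix of the 6 genes at very different summed levels. The 6 genes summed to 23.5, 24.4 and 16.5 CPM in challenged Mirc11-/- libraries and to 4.48, 4.03 and 4.31 CPM in unchallenged ones. They summed to 313, 359 and 297 CPM in challenged wild-type libraries, against 8.08, 7.37 and 6.91 CPM in unchallenged ones. No groups overlapped in the sum. Reg3b made up 33.9% ± 4.96 of the family's counts in challenged Mirc11-/- and 35.6% ± 1.79 in challenged wild-type libraries (SD, n = 3 each). Reg2 made up 25.6% ± 5.64 and 24.4% ± 0.516 in the same groups, and Reg1 21.5% ± 1.87 and 21.3% ± 1.02. These 3 shares differed by less than the spread between replicates. For Reg3a and Reg3d the ranges of the shares did not overlap. Reg3a made up 12.1% ± 0.560 in challenged Mirc11-/- and 10.5% ± 0.512 in challenged wild-type libraries, and Reg3d 1.65% ± 0.696 and 2.72% ± 0.298 in those groups. Reg3d had 11, 11 and 3 counts in challenged Mirc11-/- libraries. The 95% intervals of single libraries for counting error overlapped between challenged genotypes for Reg3a, and for Reg3d in Mirc11-/- replicates 1 and 2. For Reg3d the interval of Mirc11-/- replicate 3, 0.288% to 2.45%, overlapped wild-type replicates 2 and 3 but not replicate 1. In unchallenged libraries Reg1 alone made up 80.3% ± 1.77 of the counts in Mirc11-/- and 78.1% ± 5.78 in wild-type. Reg2 made up 16.6% ± 2.23 and 14.9% ± 5.64 there.

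**Figure D2:**
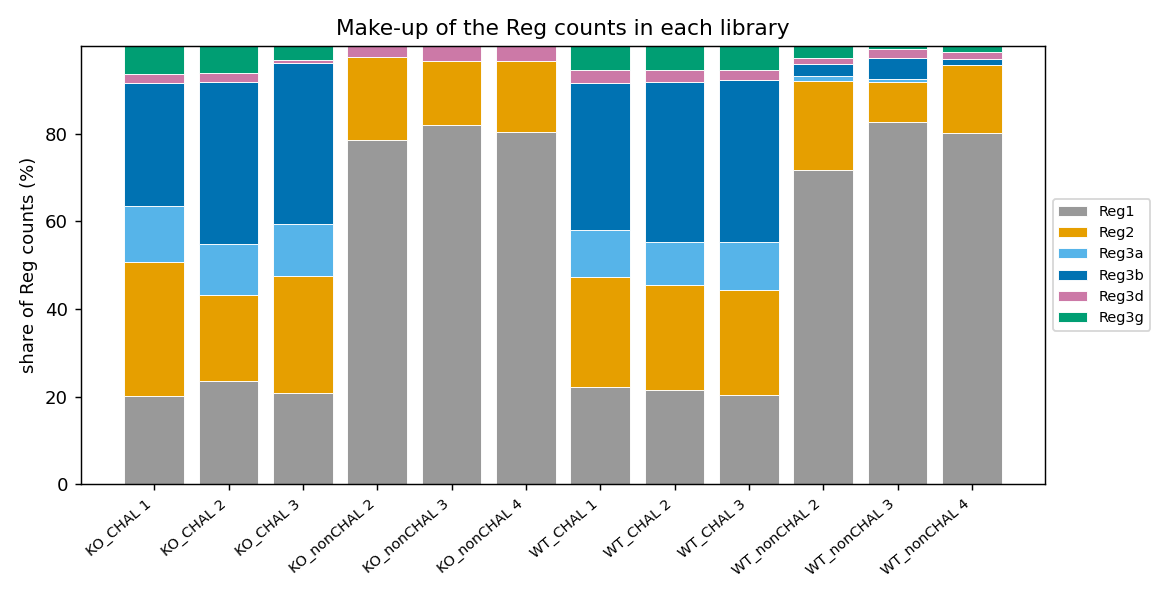
Share of the summed Reg counts taken by each of the 6 genes in each library, in percent, where KO is Mirc11-/-, WT is wild-type, CHAL is challenged with Listeria, nonCHAL is unchallenged and the number is the replicate. Reg1 takes 71.6% or more of the counts in every unchallenged library and 23.7% or less in every challenged one.

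In the fit over all genes, all 6 members were called higher with challenge in wild-type libraries, where 32.4% of all tested genes were called higher. In Mirc11-/- libraries 5 members were called higher with challenge, all but Reg1, beside 15.6% of tested genes. After challenge all 6 were called lower in Mirc11-/- than in wild-type, beside 25.9% of tested genes. Without challenge 2 of 6 were called lower in Mirc11-/-, Reg1 and Reg3b, beside 5.07% of tested genes. The difference between the challenge responses was called for 3 of 6, Reg1, Reg2 and Reg3d, beside 35.2% of tested genes called in either direction. The call rule was an adjusted p below 0.05 in edgeR's quasi-likelihood test. With challenge in Mirc11-/- the Reg3d call was lost under 12 of 19 alternatives, DESeq2, the replicate block and the loss of any one of 10 libraries, and Reg1 was called without challenged Mirc11-/- replicate 3. Without challenge the Reg3b call was lost when unchallenged wild-type replicate 2 or 3, or unchallenged Mirc11-/- replicate 3 or 4, was left out. Because the members were chosen from these levels, nothing is read from the calls or from their stability.

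After challenge each of the 6 genes was lower in Mirc11-/- libraries than in wild-type ones. The log2 difference of challenged Mirc11-/- minus challenged wild-type was -4.09 ± 0.15 for Reg3b, -3.78 ± 0.16 for Reg3a, -4.00 ± 0.27 for Reg3g and -4.63 ± 0.27 for Reg3d. It was -3.99 ± 0.14 for Reg1 and -3.94 ± 0.18 for Reg2. The median over all tested genes was -0.00. As ratios of mean CPM, wild-type libraries held 12.9-fold more Reg3a, the smallest ratio, and 23.6-fold more Reg3d, the highest. Without challenged Mirc11-/- replicate 3 the 6 differences ran from -4.26 to -3.62.

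Without challenge the genotype difference was smaller where it could be measured. For Reg1 the log2 difference of Mirc11-/- minus wild-type was -0.74 ± 0.16, with 3.43 ± 0.113 CPM in Mirc11-/- and 5.80 ± 0.276 CPM in wild-type libraries (SD, n = 3 each). Reg2 differed by -0.64 ± 0.38 and Reg3d by 0.15 ± 0.64, and their libraries overlapped. Reg3b was at least 4.51-fold lower and Reg3g at least 2.47-fold lower in Mirc11-/- libraries, counted against the floor, from 13 and 7 counts in wild-type. Without unchallenged wild-type replicate 4 the Reg1 difference was -0.77 ± 0.18. Reg3a held 0 counts in Mirc11-/- and 3 in wild-type, which is too few for a fold.

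For 3 genes the response itself could be compared, as challenge in Mirc11-/- minus challenge in wild-type. This log2 difference of differences was -3.24 ± 0.21 for Reg1, -3.30 ± 0.46 for Reg2 and -4.77 ± 0.79 for Reg3d. Reg3a, Reg3b and Reg3g had no counts in unchallenged Mirc11-/- libraries, so a fitted value depends on the prior count and is not given. Without unchallenged wild-type replicate 4, the differences with challenge in wild-type were 3.64 ± 0.17 for Reg1, 6.21 ± 0.28 for Reg2, 8.71 ± 0.26 for Reg3b, 6.10 ± 0.41 for Reg3d and 7.12 ± 0.48 for Reg3g.

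**Figure D3:**
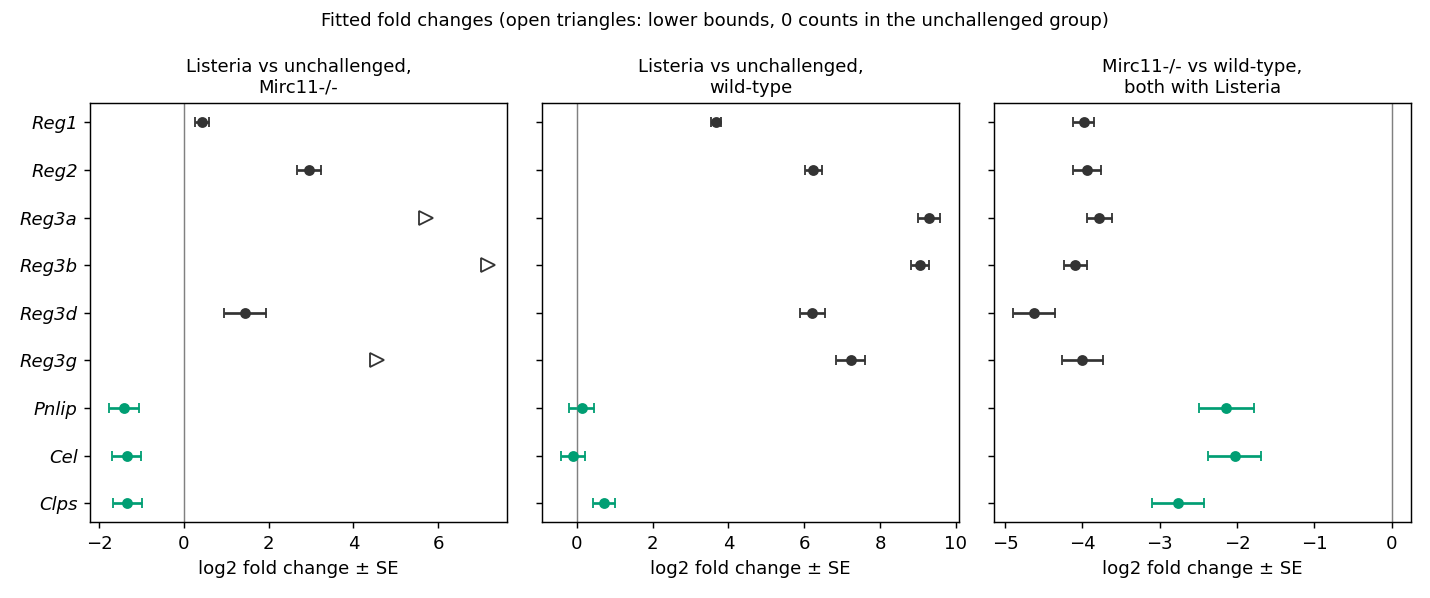
Log2 fold changes with approximate standard errors from edgeR for the 6 Reg genes and 3 enzyme genes. The panels show challenge within Mirc11-/-, challenge within wild-type and genotype after challenge. Open triangles are lower bounds for genes with 0 counts in the unchallenged group, and each panel has its own axis. All 6 Reg genes lie at -3.78 or below in the right panel, and the enzymes lie between -2.77 and -2.03.

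With challenge Pnlip and Cel changed otherwise than the Reg genes in both genotypes, and Clps did so in Mirc11-/-. After challenge the enzyme genes too were lower in Mirc11-/- than in wild-type. Pnlip, the pancreatic lipase, had 31.8, 28.6 and 9.11 CPM in challenged Mirc11-/- libraries and 57.3, 59.0 and 66.5 CPM in unchallenged ones. In wild-type it had 90.0, 108 and 89.1 CPM with challenge, against 99.3, 102 and 81.4 CPM without it, and these overlapped. The log2 difference with challenge was -1.40 ± 0.35 in Mirc11-/- and 0.13 ± 0.33 in wild-type. Cel, the bile salt lipase, differed by -1.35 ± 0.35 and -0.10 ± 0.32, and Clps, the cofactor of the lipase, by -1.33 ± 0.35 and 0.72 ± 0.30, in the same genotypes. In wild-type Clps was 1.53-fold higher with challenge by mean CPM, and its libraries did not overlap. None of the 3 enzymes was called there, but 1 was called higher under 4 of the alternatives. Without challenge the log2 difference of Mirc11-/- minus wild-type was -0.61 ± 0.34 for Pnlip, -0.78 ± 0.32 for Cel and -0.72 ± 0.31 for Clps. These lie beside -0.74 ± 0.16 for Reg1, and libraries of the genotypes did not overlap for any of the 3 enzymes. None of the 3 was called there, but all 3 were without challenged Mirc11-/- replicate 3. After challenge the genotype difference was -2.14 ± 0.36 for Pnlip, -2.03 ± 0.34 for Cel and -2.77 ± 0.34 for Clps. Challenged Mirc11-/- replicate 3 was the lowest library for all 3 enzymes. Without it these genotype differences were -1.77 ± 0.12, -1.66 ± 0.14 and -2.38 ± 0.18. The differences with challenge in Mirc11-/- were then -1.03 ± 0.12 for Pnlip, -0.98 ± 0.14 for Cel and -0.94 ± 0.18 for Clps. With a replicate block, or without unchallenged Mirc11-/- replicate 4, none of the 3 was called lower with challenge in Mirc11-/-.

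The ratio of the Reg sum to the sum of the 3 enzymes was higher in every challenged library than in any unchallenged one. Because the Reg genes were chosen for high counts in challenged wild-type libraries, this is a description and supports nothing. It was 0.404, 0.474 and 1 in challenged Mirc11-/- libraries and 0.0434, 0.0379 and 0.0370 in unchallenged ones. It was 1.87, 1.74 and 1.76 in challenged wild-type libraries, against 0.0444, 0.0374 and 0.0461 in unchallenged ones. Unchallenged libraries of both genotypes overlapped in this ratio. Challenged ones did not, and the ratio of 1 in Mirc11-/- belongs to replicate 3, with 355 counts each of Reg and enzymes. The ratio of Reg2 to Reg1 counts was 1.52, 0.821 and 1.28 in challenged Mirc11-/- and 1.12, 1.12 and 1.19 in challenged wild-type libraries. It was 0.242, 0.178 and 0.2 in unchallenged Mirc11-/- and 0.283, 0.109 and 0.193 in unchallenged wild-type libraries.

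**Figure D4:**
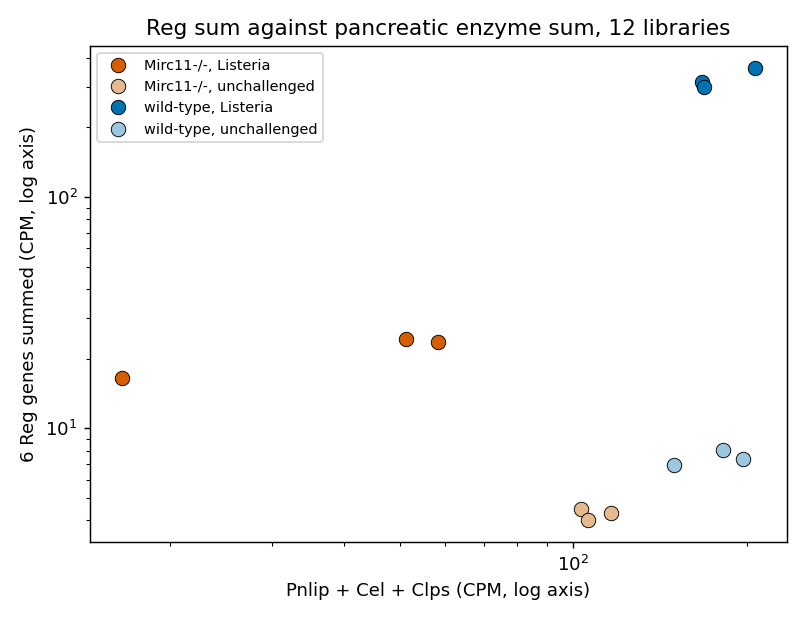
Summed CPM of the 6 Reg genes against summed CPM of Pnlip, Cel and Clps, both on log axes, with 1 point per library. Challenged wild-type libraries sit at 297 to 359 CPM of Reg with 167 to 206 CPM of enzymes, while unchallenged wild-type libraries hold 6.91 to 8.08 CPM of Reg at 150 to 197 CPM of enzymes.

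Other products of pancreatic acinar cells were also in these libraries. Of 30 acinar secretory genes on the list, which contains Pnlip, Cel and Clps, 29 were tested. With challenge in Mirc11-/- 1 rose and 24 fell, and in wild-type 17 rose and 2 fell, with median log2 differences of -1.13 and 0.91 in those genotypes. After challenge 27 were lower and 0 higher in Mirc11-/-, with a median of -2.81. Over all tested genes the median was -0.01 with challenge in either genotype and -0.00 between challenged genotypes. Of all tested genes 32.4% rose with challenge in wild-type, 15.6% rose in Mirc11-/- and 25.9% were lower in challenged Mirc11-/- than in challenged wild-type. The shares called in the opposite directions are not given. These medians and shares hold as the comparison for each list that follows. Without unchallenged wild-type replicate 4, or with a replicate block, 10 to 11 rose in wild-type in place of 17. Without unchallenged Mirc11-/- replicate 4, or with the block, 14 to 15 fell in Mirc11-/- in place of 24. The list summed to 115 to 397 CPM in challenged Mirc11-/-, 554 to 563 in unchallenged Mirc11-/-, 1630 to 2159 in challenged wild-type and 928 to 1242 CPM in unchallenged wild-type libraries. Gp2, the major membrane protein of acinar secretory granules, rose with challenge in wild-type (log2 1.88 ± 0.17, edgeR adjusted p = 1.13e-07) and was lower in challenged Mirc11-/- (-3.26 ± 0.19, adjusted p = 2.72e-09). Cuzd1, another granule protein, changed by 1.93 ± 0.25 (adjusted p = 8.16e-06) and -2.81 ± 0.27 (adjusted p = 6.50e-07) in those comparisons. Rbpjl, a subunit of the acinar factor PTF1, fell in wild-type with challenge by 2.30 on the log2 scale (SE 0.35, adjusted p = 7.04e-05), with 1.47 CPM with challenge and 7.84 CPM without it.

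Islet and intestinal epithelial cells also make Reg proteins. Of 13 pancreatic islet genes none passed the low-count filter, their sums were 0.305 to 0.890 CPM, and Sst, Ppy, Pyy and G6pc2 had 0 counts in all libraries. Of 22 intestinal epithelial genes 9 were tested. The other 13 averaged at most 0.373 CPM in any group, and Cdx1, Cdx2, Fabp2, Defa24 and Retnlb among them had 0 counts in all libraries. This list summed to 28.3 to 39.4 CPM in challenged Mirc11-/-, 36.1 to 37.7 in unchallenged Mirc11-/-, 168 to 193 in challenged wild-type and 45.9 to 51.2 CPM in unchallenged wild-type libraries. Most of the sum in challenged wild-type libraries came from Dmbt1, at a mean of 104 CPM, and Zg16, at 31.6 CPM. Zg16 is also on the acinar secretory list, so the lists are not separate. With challenge in wild-type 5 of the 9 rose and 1 fell, and after challenge 6 were lower and 0 higher in Mirc11-/-. Dmbt1, a secreted scavenger receptor that binds bacteria and is made by both pancreas and gut, had 7.43 CPM in challenged Mirc11-/- and 7.32 CPM in unchallenged Mirc11-/- libraries. It had 104 CPM in challenged wild-type libraries, against 13.9 CPM in unchallenged ones. Its log2 difference after challenge was -3.91 ± 0.17 between genotypes (adjusted p = 6.40e-10). Cdh17, a cadherin of intestinal epithelium, averaged 8.64 CPM in challenged Mirc11-/- and 3.71 CPM in unchallenged Mirc11-/- libraries. It averaged 26.9 CPM in challenged wild-type libraries, against 3.69 CPM in unchallenged ones. Cdh17 rose with challenge by 1.21 ± 0.14 in Mirc11-/- (adjusted p = 1.31e-05) and by 2.97 ± 0.14 in wild-type (adjusted p = 5.28e-11) on the log2 scale. After challenge its log2 difference between genotypes was -1.74 ± 0.12 (adjusted p = 2.42e-08). Lgals4, a gut galectin, was the gene of this list that fell with challenge in wild-type, with 6.14 CPM with challenge and 9.74 CPM without it.

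Most markers of myeloid cells rose with challenge in wild-type as well. All 13 neutrophil markers rose there, with a median of 3.39. With challenge in Mirc11-/- 10 rose and 3 fell, and after challenge 4 were higher and 9 lower in Mirc11-/- than in wild-type. The 3 that fell were 1 with no filter or without unchallenged Mirc11-/- replicate 4. The 4 were 2 without challenged wild-type replicate 1 or challenged Mirc11-/- replicate 1 or 2. Sums of the 13 neutrophil markers were 937 to 1399 CPM in challenged Mirc11-/-, 525 to 543 in unchallenged Mirc11-/-, 1805 to 2125 in challenged wild-type and 91.1 to 96.7 CPM in unchallenged wild-type libraries. The order of unchallenged groups was opposite to that of the Reg sum, with Mirc11-/- above wild-type in neutrophil markers and below it in Reg. Of 15 macrophage and monocyte markers 12 rose and 2 fell with challenge in wild-type, and 3 were higher and 11 lower in challenged Mirc11-/- than in challenged wild-type. Of 12 NK cell markers 2 rose and 9 fell with challenge in wild-type, and 7 were higher and 2 lower in challenged Mirc11-/- than in challenged wild-type. The part of pancreatic, intestinal and myeloid transcripts in the Reg levels was not tested.

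Genes of the pathway that induces Reg genes in epithelium were read from a list of 37 receptors, cytokines and STAT genes, of which 34 were tested. With challenge in Mirc11-/- 13 rose and 5 fell, and in wild-type 24 rose and 6 fell, with medians of 0.28 and 1.195. After challenge 6 were higher and 20 lower in Mirc11-/-, with a median of -0.70, beside a median of -0.00 over all tested genes. Il22, the cytokine that induces Reg3 genes in gut, had 1.90, 1.41 and 1.16 CPM in challenged Mirc11-/- libraries and a single count in the unchallenged ones together. It had 10.2, 8.98 and 9.44 CPM in challenged wild-type libraries and 0 counts in unchallenged ones. Challenged and unchallenged libraries did not overlap in either genotype. The challenged wild-type level was at least 183-fold higher than the floor, and the log2 difference of challenged Mirc11-/- minus challenged wild-type was -2.76 ± 0.21 (adjusted p = 2.45e-07). The ratio of summed CPM in Mirc11-/- was 90.1, with an exact 95% interval of 15.8 to 3593 for counting error.

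Il6, whose product signals through STAT3, had 6.13, 7.26 and 6.00 CPM in challenged Mirc11-/- and 5.28, 5.79 and 4.11 CPM in unchallenged Mirc11-/- libraries. It had 15.4, 13.0 and 12.9 CPM in challenged wild-type libraries, against 1.20, 0.716 and 1.83 CPM in unchallenged ones. Its difference with challenge was not called in Mirc11-/- (0.34 ± 0.19, adjusted p = 0.223) and was called in wild-type (3.56 ± 0.23, adjusted p = 2.28e-09), and the difference between these responses was -3.22 ± 0.30 (adjusted p = 1.19e-06). Stat3 itself, the transcription factor, rose by 0.23 ± 0.06 in Mirc11-/- (adjusted p = 0.0124) and by 1.40 ± 0.06 in wild-type (adjusted p = 4.39e-11). Its log2 difference between challenged genotypes was -1.22 ± 0.06 (adjusted p = 8.81e-10). Socs3, a target and inhibitor of STAT3 signalling, rose by 0.69 ± 0.12 in Mirc11-/- (adjusted p = 0.000623) and by 1.497 ± 0.12 in wild-type (adjusted p = 6.47e-08). Lif, a cytokine of the same receptor family, and Il1b, an upstream inflammatory cytokine, were lower in challenged Mirc11-/- by log2 differences of -2.22 ± 0.13 (adjusted p = 3.23e-09) and -1.27 ± 0.11 (adjusted p = 1.30e-07). Extl3, a candidate receptor for Reg proteins, fell with challenge in wild-type, with a log2 difference of -0.48 ± 0.10 (adjusted p = 0.000495). Between challenged genotypes Extl3 was not called (0.19 ± 0.10, adjusted p = 0.115). The interleukin 22 receptor gene Il22ra1 and the decoy receptor gene Il22ra2 did not pass the filter on low counts.

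**Figure D5:**
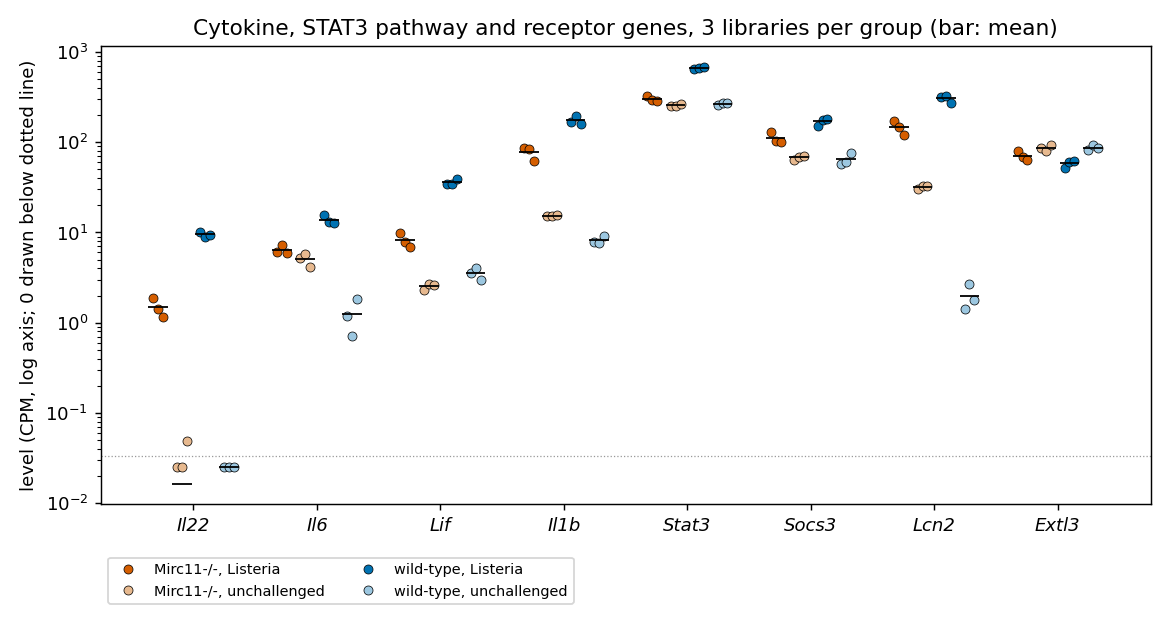
Level of genes of cytokine and STAT3 signalling, of the acute phase gene Lcn2 and of the candidate receptor gene Extl3 in CPM on a log axis, with 1 point per library and a bar for the mean of 3. Il22 is at 0 counts or 1 count in the unchallenged groups and at 8.98 CPM or more in challenged wild-type libraries, while Extl3 stays between 51.8 and 94.0 CPM.

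Secreted proteins that respond to the same cytokines rose in both genotypes. Of 14 tested genes on the acute phase list, 13 rose with challenge in Mirc11-/- and all 14 in wild-type, with medians of 1.49 and 4.33. After challenge 13 of 14 were lower in Mirc11-/-, with a median of -1.01. Lcn2, an iron-sequestering antibacterial protein, rose by 2.199 ± 0.14 in Mirc11-/- (adjusted p = 1.14e-07) and by 7.38 ± 0.19 in wild-type (adjusted p = 2.77e-12). Its level in unchallenged libraries was 31.7 CPM in Mirc11-/- and 1.95 CPM in wild-type. C3 and Cfb, complement components, were lower in challenged Mirc11-/-, with log2 differences of -1.22 ± 0.11 (adjusted p = 6.86e-07) and -1.52 ± 0.14 (adjusted p = 2.38e-06). Of 19 tested genes on the list of other antibacterial proteins, 17 rose and 1 fell with challenge in wild-type, and 6 were higher and 12 lower in challenged Mirc11-/-. The count of 6 was 3 without challenged wild-type replicate 1 or challenged Mirc11-/- replicate 1 or 2. Of 21 other soluble or myeloid C-type lectins, which share the fold of Reg proteins, 10 rose and 7 fell with challenge in wild-type. In challenged Mirc11-/- 8 were higher and 5 lower, beside 25.9% of all tested genes called lower. Nothing is read from these lectin counts.

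The profiles most like those of the Reg genes were found by the root mean square difference of centred log2(CPM + 0.5) over the 12 libraries, where a smaller value is more alike. All genes share the same libraries and their depth. Reg1 was nearest to Dmbt1 (0.27) and Reg2 and Reg3a to each other (0.29). Reg3b was nearest to Reg3a (0.72), followed by Cxcl10 at 0.77, the gene of an interferon-induced chemokine. Reg3d was nearest to Spata31d1b (0.28), and Reg3g to Ceacam15 (0.37). Ramp3, an accessory protein of peptide hormone receptors, was among the 5 nearest of Reg2, Reg3a and Reg3b, and Vdr, the vitamin D receptor, among those of Reg2, Reg3a and Reg3g. The enzyme genes lay 0.095 to 0.34 from each other, the Reg genes 0.29 to 1.86 from each other, and Reg and enzyme genes 1.26 to 3.32 apart. The last 2 ranges overlapped, as Reg1 lay 1.26 from Clps and 1.86 from Reg3b. At 0 counts the pseudocount sets the value, and the nearest gene changed for Reg2, Reg3a, Reg3d and Reg3g with a pseudocount of 0.1 and for Reg3a, Reg3b, Reg3d and Reg3g with 2. Dmbt1 was nearest to Reg1 with all 3 pseudocounts.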

How the data were processed

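Polyadenylated RNA of NK cells was extracted with Trizol and made into libraries with the TruSeq RNA kit, per the labels' protocols. The submitters' processing notes name GRCm38 as the genome, RSEM 1.3.0, Bowtie2 2.2.8, and Trim Galore 0.4.1 besides bcl2fastq. The values deposited by the authors are unnormalized counts per gene. RSEM gives estimated counts, whereas the deposited values are whole, and the sources used here do not state the rounding, annotation release or strand setting.

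CPM was the count divided by the column total. Genes were filtered with filterByExpr, scaled by TMM and tested in edgeR 4.0.16 under R 4.3.3 (quasi-likelihood F test, robust) in 1 fit of 12 libraries with a term per group. Benjamini-Hochberg adjustment ran over 16694 genes in each of 5 contrasts, and all adjusted p-values given come from that test unless DESeq2 is named. Standard errors were approximations, taken as the log2 fold change over the root of F. Those of the difference between responses therefore need not equal the combined errors of the separate responses. A group at 0 was set to a floor of 3 counts over the group, 0.0442 to 0.0521 CPM, for counting error only. Members, lists and the rule for named genes were chosen with earlier results of these data known. The rule took the members, the enzymes, Reg4, Extl3, Il22, its receptors, Il6, Stat3 and Socs3, then for each list up to 3 called genes with the smallest p with challenge in wild-type and up to 2 between challenged genotypes, and the 5 nearest profiles of each member. The microRNA genes, Gm26532, Gm37352, Xist, Ddx3y and Lgals4 were named after their values were seen. Lists of hepatocyte, stromal, innate lymphoid and acinar transcription factor genes were also read: hepatocyte 1 of 14 tested, stromal 12 higher and 2 lower of 17, innate lymphoid 7 higher and 2 lower of 11, and acinar factors 0 higher and 2 lower of 3 with challenge in wild-type. No duplicated library was seen: the ratio of squared differences to counting noise was 3.51 to 26.7 within groups. The edgeR step was tested on simulated data. Python 3.11.15, numpy 2.4.6, pandas 2.3.3, scipy 1.17.1 and matplotlib 3.10.9 were also used. Alternatives were RLE and upper-quartile scaling, no filter, a non-robust fit, DESeq2 1.42.0, a replicate block and leaving out each library. The pair of libraries left out together was chosen after seeing the data.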

Additional observations from a re-analysis of the deposited data

Results flagged for a closer look

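The challenge response differed between genotypes for the genes below, by the contrast of challenge in Mirc11-/- minus challenge in wild-type in edgeR (adjusted p below 0.05 over all tested genes). Each value is that difference on the log2 scale. Among the Reg genes, which were chosen from these values so that the threshold shows nothing for them, it was -3.24 for Reg1, -3.3 for Reg2 and -4.77 for Reg3d. Among the pancreatic genes it was -1.53 for Pnlip, -2.05 for Clps, -2.77 for Gp2, -2.33 for Cuzd1 and -2.02 for Zg16. Rbpjl, a factor of acinar cells, had 1.41, the only value above 0 in this set. Under 12 of the alternatives no acinar factor was called higher in this contrast, so the Rbpjl call was lost in these. Of the enzymes Pnlip, Cel and Clps, 2 were called lower in the fit of all libraries, but only 1 under 11 of the alternatives. Dmbt1 had -3.01 and Cdh17 -1.76. Among cytokine and STAT3 pathway genes it was -3.22 for Il6, -1.78 for Lif, -2.19 for Il1b, -1.18 for Stat3 and -0.81 for Socs3. Among acute phase genes it was -5.18 for Lcn2, -1.68 for C3 and -1.54 for Cfb. Challenge in Mirc11-/- also separated libraries by Xist, and the part of that in these differences was not tested.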

How the results depend on the processing

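For challenge in wild-type and genotype after challenge the 6 Reg genes were called under all 19 alternatives, and Reg1, Reg2 and Reg3d were for the difference between responses. The members were chosen for high counts in challenged wild-type libraries, which fixes these calls, so this is no sign of stability. Leaving out single libraries gave 1 to 3 called members for genotype without challenge, against 2 in the fit of all libraries, as Reg3b lost its call without wild-type replicate 2 or 3 or Mirc11-/- replicate 3 or 4 of the unchallenged groups. Without challenged Mirc11-/- replicate 3, or with DESeq2, Reg3g was called there too. The Reg3d call with challenge in Mirc11-/- was lost under 12 alternatives, and Reg1 gained one under 3. With a replicate block, 6, 4, 6, 2 and 3 members were called in the 5 comparisons in the order of the text. The replicate numbers were not taken as pairs: residuals of the 10 same-numbered pairs of libraries correlated at -0.405 to 0.303 (median 0.0339), and 3 were above 0.1. They were -0.405, 0.0841 and -0.159 between challenged genotypes, 0.188, -0.0659 and 0.00862 between unchallenged ones, 0.303 and 0.0217 with challenge in Mirc11-/-, and 0.0461 and 0.204 with challenge in wild-type. The 26 pairs of different number ran from -0.346 to 0.408. Titles of unchallenged samples also carry another replicate number that differs from the one used here. Neither pairs nor a block by that other number were checked. With the block or without unchallenged wild-type replicate 4, 10 to 11 acinar genes rose in wild-type, against 17. With the block or without unchallenged Mirc11-/- replicate 4, 14 to 15 fell in Mirc11-/-, against 24, and the 3 enzymes lost their call there. Other antibacterial genes higher in challenged Mirc11-/- were 3, against 6, without challenged wild-type replicate 1 or challenged Mirc11-/- replicate 1 or 2. With upper-quartile scaling the median of all genes with challenge in wild-type was -0.12, against -0.01. Intestinal genes that fell in wild-type were 2, against 1, under 2 alternatives, and those higher in challenged Mirc11-/- 1, against 0, under 4. The cause of these changes was not tested. With at most 7 counts in any unchallenged library, and none in Mirc11-/- for 3 of them, unchallenged levels of the Reg3 genes are limited by depth.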
